A study of Homo sapiens with 6 samples.

Results

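The genes of 10 kinesins that act in cell division were followed in PC-3 cells, a human prostate cancer cell line, after treatment with an inhibitor of glutamine uptake. The members, KIF11, KIF15, KIF18A, KIF18B, KIF2C, KIF4A, KIF14, KIF20A, KIF20B and KIF23, were taken by name and are 10 of the 19491 genes listed in each table. Cells were left untreated (control), or were given either 1 mM GPNA or 10 mM BenSer and harvested after 48 h. GPNA and BenSer are both small molecule inhibitors of the amino acid transporter ASCT2. For BenSer the study also cites inhibition of the transporter LAT1, seen in oocytes, and proposes effects that do not go through ASCT2. All groups were grown in RPMI medium with fetal bovine serum and sodium pyruvate, and were profiled by stranded total RNA sequencing.

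The labels name 2 samples per group, given here as columns 1 and 2, and do not say that these came from separate cultures. Within a group the columns were nearly as alike as draws of reads from 1 library (chi-square divided by its degrees of freedom, 1.04 to 1.06), which was not so across groups (5.33 and above). The spread within a group was still above pure read sampling (chi-square p, control 1.99e-08, BenSer 1.26e-05 and GPNA 4.48e-05), so the columns may or may not be separate libraries. As a cautious choice each group was counted as 1 sample, and no p-value is given for either treatment. Merged, the control has 46305166 reads, the GPNA group 51251712 and the BenSer group 64121179. Only part of these reads lay on the listed genes. The share was 52.7 and 52.6% in the control columns, 51.7 and 51.6% with GPNA, and 52.3 and 52.2% with BenSer. Levels are CPM, the reads of a gene per 1000000 reads of the library, and differences are in log2(CPM + 1) of the mean of both columns, with 95% intervals that cover counting error only. In the control, the epithelial markers EPCAM (97.8 CPM), KRT8 (289 CPM), KRT18 (108 CPM), KRT19 (669 CPM) and CDH1 (87.3 CPM) were all present. Of 7 leukocyte, endothelial and fibroblast markers COL1A1 was at 5.57 CPM and COL3A1 at 0.906 CPM. The other 5 (PTPRC, CD3E, CD68, PECAM1 and VWF) were not analysed, as no single entry of these names was found among the listed genes.

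Kinesins are motor proteins that use ATP to walk along microtubules or to shorten them. In dividing cells they push the spindle poles apart, bring chromosomes to the spindle equator and build the central spindle on which the cell cleaves. Many of their genes are transcribed mainly in G2 and mitosis, under the MuvB complex with B-MYB and FOXM1, which is recruited through a CHR element, while the neighbouring CCAAT boxes are bound by NF-Y. Both elements were looked for in the RefSeq promoters of the members, from 250 bases before to 50 bases after the start site, as the letters TTTGAA (CHR) and CCAAT on either strand, which do not overlap each other.

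Promoter windows of 4 members are shown, from 120 bases before to 30 bases after the start site, read 5′ to 3′ in the direction of transcription, with CHR and CCAAT letters in capitals. KIF23 is shown because its level differed most with BenSer, and KIF4A because it differed most with GPNA when all columns were used. KIF18A is shown because it differed least with BenSer, and KIF2C because neither set of letters was found. On GRCh37 the windows are chr15:69706568-69706717 (plus strand, KIF23), chrX:69509834-69509983 (plus strand, KIF4A), chr11:28129674-28129823 (minus strand, KIF18A) and chr1:45205389-45205538 (plus strand, KIF2C).
KIF23: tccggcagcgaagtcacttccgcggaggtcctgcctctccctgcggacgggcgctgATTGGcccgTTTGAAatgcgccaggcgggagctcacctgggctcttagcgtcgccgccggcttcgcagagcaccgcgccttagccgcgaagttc
KIF4A: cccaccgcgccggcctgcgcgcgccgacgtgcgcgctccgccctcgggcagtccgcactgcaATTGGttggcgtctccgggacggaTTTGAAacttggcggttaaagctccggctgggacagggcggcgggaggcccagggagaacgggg
KIF18A: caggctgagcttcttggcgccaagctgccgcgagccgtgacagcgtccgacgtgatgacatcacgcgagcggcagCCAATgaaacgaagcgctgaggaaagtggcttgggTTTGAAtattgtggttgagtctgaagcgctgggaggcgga
KIF2C: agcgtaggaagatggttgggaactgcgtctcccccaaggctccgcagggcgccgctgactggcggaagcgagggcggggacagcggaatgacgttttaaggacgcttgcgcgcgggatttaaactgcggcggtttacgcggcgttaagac

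The CHR letters occurred in 8 of the 10 member promoters, against 15.2% of 35116 RefSeq promoters of the same length. The CCAAT letters occurred in 8 of the 10 members and in 34.6% of all promoters, and both were found together in 7 members and in 5.90% of all promoters. KIF15 held the CHR letters without CCAAT, KIF20A held CCAAT without the CHR letters, and KIF2C held neither in this window. In KIF23 the CCAAT match began 64 bases and the CHR match 55 bases before the start site. The corresponding positions were 58 and 34 bases before it in KIF4A, 53 and 28 in KIF11, and 45 and 10 in KIF18A. In KIF14 and KIF18B the CHR letters lay just after the start site, at positions 2 and 3, and KIF20B held 2 matches further downstream. These are matches of exact letters. Other spellings of the elements were not looked for, and binding was not measured.

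**Figure D1:**
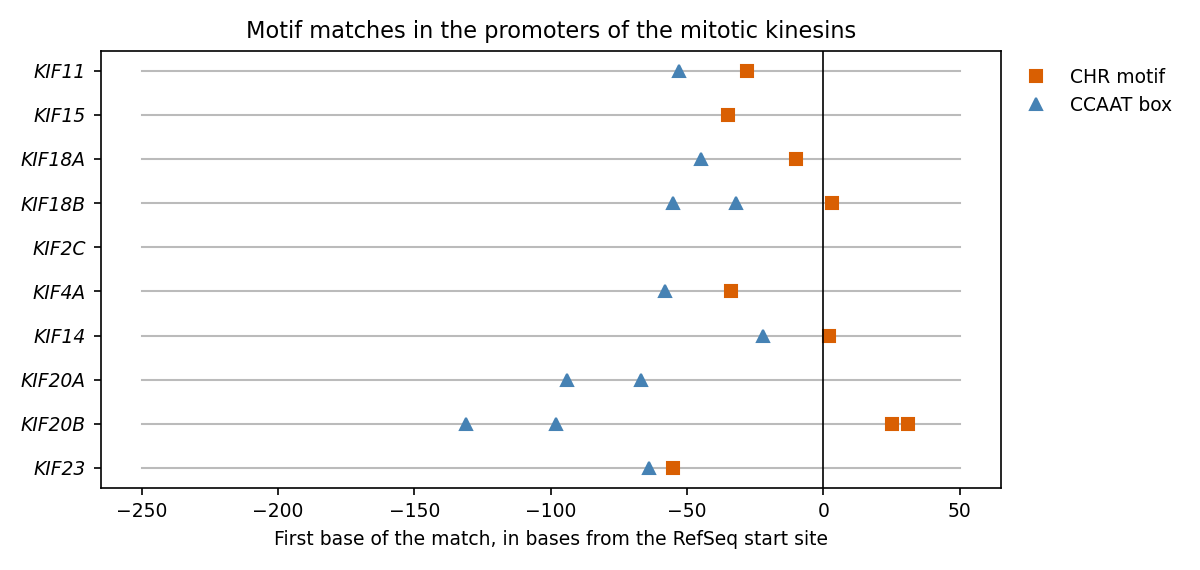
Positions of the CHR letters (squares) and CCAAT letters (triangles) in the promoters of the 10 mitotic kinesins, with the distance from the RefSeq start site in bases on the horizontal axis. KIF2C has no match, and in KIF23, KIF4A, KIF11, KIF18A and KIF14 one CCAAT match is followed by one CHR match.

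With BenSer all 10 mitotic kinesins had lower levels than the control, as did 55.4% of all genes tested, and for each of them both BenSer columns lay below both control columns. Summed over the members, the untreated level was 533 CPM and the BenSer level 344 CPM, which is 64.6% of the control (95% interval, 63.4 to 65.8%). With GPNA the sum was 506 CPM, or 94.9% of the control (93.3 to 96.6%). In whole cultures, fewer dividing cells and less of these mRNAs per cell cannot be told apart.

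**Figure D2:**
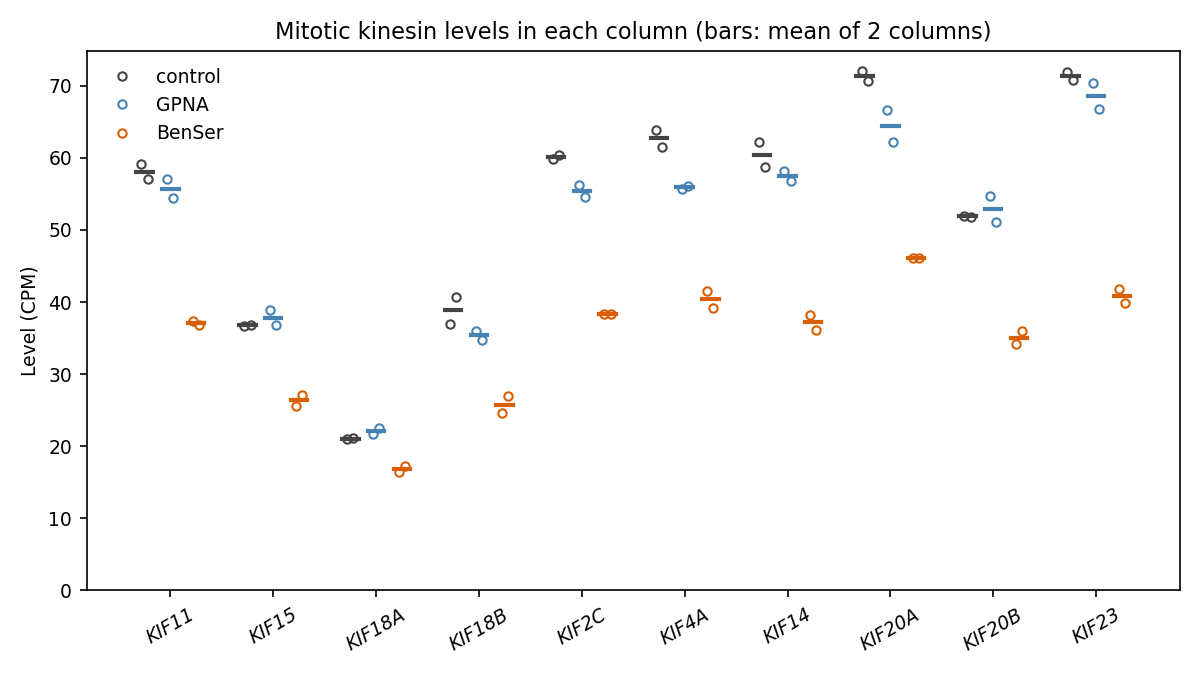
Levels of the 10 mitotic kinesins in CPM on the vertical axis, with a point for each of the 2 columns of the control, GPNA and BenSer groups and a bar at their mean. For every gene both BenSer points are below both control points, while the GPNA and control points are close to each other.

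KIF11 (Eg5, ENSG00000138160, chr10:94333862-94415152, plus strand) is the kinesin-5 motor that slides antiparallel microtubules apart to form a bipolar spindle. Its level was 59.2 and 57.0 CPM in untreated cells, 57.1 and 54.4 CPM with GPNA, and 37.4 and 36.8 CPM with BenSer. The GPNA columns overlapped the control columns, whereas the BenSer columns lay below both. With BenSer KIF11 was at 63.8% of the control (60.4 to 67.5%), and with GPNA at 95.9% (91.0 to 101%).

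KIF15 (ENSG00000163808, chr3:44803213-44914868, plus strand) is a kinesin-12 motor that helps to hold the spindle bipolar and can partly stand in for KIF11. It was at 36.7 and 36.9 CPM in untreated cells, 38.8 and 36.8 CPM with GPNA, and 25.6 and 27.1 CPM with BenSer. Only the BenSer columns were apart from the control. The log2 difference of KIF15 with BenSer, −0.47 (−0.56 to −0.37), was smaller in size than that of KIF11, −0.63 (−0.71 to −0.56), although these intervals touch.

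Of the kinesins that align chromosomes and regulate microtubule length, KIF18A (ENSG00000121621, chr11:28042166-28129703, minus strand) is a kinesin-8 that dampens chromosome movements at the spindle equator. It was measured at 21.0 and 21.1 CPM in untreated cells, 21.6 and 22.6 CPM with GPNA, and 16.4 and 17.2 CPM with BenSer. KIF18A was the only member with both GPNA columns above both control columns, but its interval for GPNA included 0 (0.067, −0.052 to 0.19). With BenSer it was at 79.7% of the control (73.0 to 87.0%), the smallest difference among the members.

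KIF18B (ENSG00000186185, chr17:43002077-43025141, minus strand), the other kinesin-8, acts at the ends of astral microtubules. It was measured at 36.9 and 40.7 CPM in untreated cells, 36.0 and 34.7 CPM with GPNA, and 24.6 and 26.9 CPM with BenSer. Its columns spread more than those of other members in the control (9.76% of the mean) and with BenSer (9.09%). With GPNA the spread of KIF18B was 3.61%, and KIF20B had the largest, 6.92%. The level of KIF18B was 91.1% of the control with GPNA (85.3 to 97.3%) and 66.3% with BenSer (62.0 to 70.9%). Of the 50-base stretches of its longest coding transcript, 3.53% also occur in other genes.

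KIF2C (MCAK, ENSG00000142945, chr1:45205490-45233439, plus strand) does not walk but takes microtubules apart from their ends, and corrects faulty attachments at kinetochores. Its values were 59.8 and 60.4 CPM in untreated cells, 56.2 and 54.5 CPM with GPNA, and 38.4 and 38.3 CPM with BenSer. None of the groups overlapped. KIF2C was at 92.2% of the control with GPNA (87.5 to 97.2%) and at 63.9% with BenSer (60.5 to 67.4%). Its exons share 175 bases with a noncoding gene, ENSG00000225721, on the opposite strand.

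KIF4A (ENSG00000090889, chrX:69509954-69640736, plus strand) is a chromokinesin that also limits the length of the spindle midzone together with PRC1. It had 63.9 and 61.5 CPM in untreated cells, 55.7 and 56.1 CPM with GPNA, and 41.5 and 39.2 CPM with BenSer. Again no groups overlapped, and the GPNA value of KIF4A, 89.2% of the control (84.7 to 94.0%), was the lowest of the members with all columns. Without control replicate 1 KIF18B was lower (log2 difference −0.20, against −0.13 for KIF4A), and without GPNA replicate 1 KIF20A was lower (−0.19, against −0.16). With BenSer KIF4A was at 64.4% (61.1 to 68.0%). The value of KIF4A is uncertain. Of the 50-base stretches of its longest coding transcript, 14.2% also occur in KIF4B or KIF4CP, which were not analysed here. For KIF4B no single entry of that name was found among the listed genes. The exons of KIF4A also share 77 bases with PDZD11 on the opposite strand.

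The remaining members act in cytokinesis. KIF14 (ENSG00000118193, chr1:200520625-200589879, minus strand) is a kinesin-3 that brings citron kinase to the midbody. Its level was 62.2 and 58.7 CPM in untreated cells, 58.1 and 56.8 CPM with GPNA, and 38.3 and 36.1 CPM with BenSer. All 3 groups were separate, though by little between the control and GPNA. KIF14 was at 61.5% of the control with BenSer (58.2 to 65.0%), and its interval for GPNA included 0 (−0.072, −0.15 to 0.0021).

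KIF20A (MKLP2, ENSG00000112984, chr5:137514408-137523412, plus strand) carries the chromosomal passenger complex to the central spindle. It was at 72.1 and 70.6 CPM in untreated cells, 66.6 and 62.2 CPM with GPNA, and 46.1 CPM in both BenSer columns. The 3 groups did not overlap. KIF20A was at 90.3% of the control with GPNA (86.0 to 94.8%) and 64.7% with BenSer (61.5 to 68.0%). Its exons share 132 bases with BRD8 and 74 bases with CDC23 on the opposite strand, and the strand setting of the counting is not given in the sources used here.

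KIF20B (MPP1, ENSG00000138182, chr10:91461347-91534696, plus strand) is another kinesin-6 needed for the last steps of cytokinesis. It had 51.9 and 51.8 CPM in untreated cells, 54.7 and 51.0 CPM with GPNA, and 34.1 and 36.0 CPM with BenSer. The GPNA columns lay on both sides of the control columns. With BenSer KIF20B was at 67.6% of the control (63.8 to 71.6%).

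KIF23 (MKLP1, ENSG00000137807, chr15:69706585-69740766, plus strand) forms the centralspindlin complex with RACGAP1, which sets the site of cleavage. Its values were 71.9 and 70.8 CPM in untreated cells, 70.4 and 66.8 CPM with GPNA, and 41.8 and 39.9 CPM with BenSer. The BenSer columns were far below the others, and the GPNA columns were below the control columns by little. KIF23 was at 57.2% of the control with BenSer (54.4 to 60.3%), the largest difference among the members, and at 96.1% with GPNA (91.7 to 101%). Its exons share 231 bases with the antisense gene KIF23-AS1.

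The question put by the design was how each inhibitor alters expression relative to untreated cells. With BenSer 6 of the 10 members were at least 1.5-fold lower (KIF23, KIF14, KIF2C, KIF11, KIF4A and KIF20A), against 1.58% of 18976 genes tested. The members nearest to this threshold were KIF20A just inside it (log2 difference −0.62) and KIF18B just outside it (−0.57). The intervals of all 10 members were below 0, as were those of 25.8% of all genes, and both columns were below both control columns for all 10 members and for 37.5% of genes. Since the members have many reads, the shares were also taken among genes with at least 10 CPM in the control, a limit chosen after the data had been seen. Of those 7946 genes 2.48% were at least 1.5-fold lower and 42.3% had an interval below 0 with BenSer. The median log2 difference of the members was −0.62 (range −0.79 to −0.31), and that of all genes was −0.028. When libraries were scaled with TMM factors or DESeq2 size factors instead of library totals, 4 of the 10 members were at least 1.5-fold lower, as were 219 (TMM) and 216 (DESeq2) of all genes, against 300 with library totals.

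With GPNA 7 members were lower, as were 56.7% of all genes, and 3 were higher (KIF18A, KIF15 and KIF20B), as were 43.3%. KIF20B was lower, at −0.023, without GPNA replicate 1. None of the members reached 1.5-fold (0 of 10), against 0.0637% of 18828 genes at least 1.5-fold lower and 0.34% at least 1.5-fold higher. Among genes with at least 10 CPM in the control, 0.0378% were at least 1.5-fold lower. KIF4A, KIF20A, KIF18B and KIF2C had intervals below 0, that is 4 of 10 members, where 20.1% of all genes and 38.2% of genes with at least 10 CPM had one. The interval of KIF18B included 0 with TMM factors (−0.093, upper limit 0.00037), without control replicate 2 (−0.061, −0.18 to 0.055) and without GPNA replicate 2 (−0.11, upper limit 0.0061). Both GPNA columns were below both control columns for 6 members and for 34.4% of genes, and above both for 1 member, KIF18A, and for 22.4%. The members' median log2 difference was −0.065, close to the −0.028 of all genes. The summed difference with GPNA was small and depended on the scaling, being −0.075 with library totals and −0.035 with TMM factors. The median of all genes moved in the same direction, from −0.028 with library totals to 0.0023 with TMM factors. The summed difference also moved with single columns, from −0.10 without GPNA replicate 1 to −0.047 without GPNA replicate 2.

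**Figure D3:**
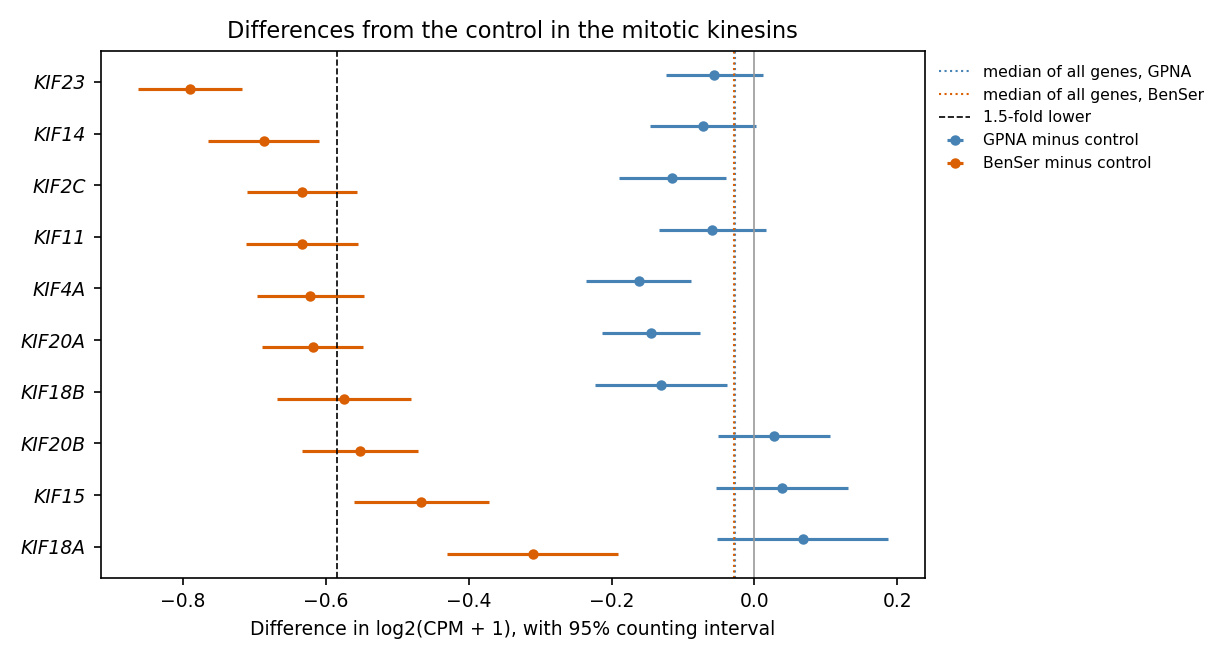
Difference from the control in log2(CPM + 1) for each mitotic kinesin with GPNA and with BenSer, with 95% counting intervals as bars, dotted lines at the medians of all genes and a dashed line at 1.5-fold lower. All BenSer intervals lie below 0, from −0.79 for KIF23 to −0.31 for KIF18A, and 6 of the GPNA intervals include 0.

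Compared directly, although the doses differed (10 mM BenSer and 1 mM GPNA) so that the libraries and not the compounds are set side by side, all 10 members were lower with BenSer than with GPNA, as were 52.1% of all genes. The summed level with BenSer was 68.0% of that with GPNA (66.8 to 69.2%). The difference was largest for KIF23, at 59.5% (56.6 to 62.7%), followed by KIF14, at 64.7% (61.3 to 68.3%). These were the 2 members at least 1.5-fold lower, against 0.813% of 19056 genes, and without GPNA replicate 2 there were 4 such members. It was smallest for KIF18A, at 75.9% (69.8 to 82.6%). All 10 intervals were below 0, compared with 20.7% of genes, and for all 10 both BenSer columns were below both GPNA columns, as for 33.6%. Among genes with at least 10 CPM with GPNA, 1.07% were at least 1.5-fold lower and 31.7% had an interval below 0. Both comparisons with the control use the same control columns.

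Counting intervals, which do not cover variation between cultures, did not overlap for some pairs of members. Of 45 pairs, these were 16 for BenSer, 6 for GPNA and 13 for BenSer against GPNA, and each member is in several pairs. Pairs of other genes were not counted, so no share over all genes stands beside these counts. KIF23 made up 13.4% of the members' reads in the control (12.98 to 13.83%) and 11.9% with BenSer (11.5 to 12.3%). The share of KIF18A was 3.95% in the control (3.71 to 4.20%), 4.37% with GPNA (4.13 to 4.63%) and 4.88% with BenSer (4.60 to 5.17%). KIF20A had a share of 13.4% in both the control and BenSer groups, and of 12.7% with GPNA (12.3 to 13.2%). Between these extremes the shares of the other members in the control ran from 6.91% for KIF15 to 11.8% for KIF4A.

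Levels were compared between genes per kb of exon sequence. In the control the order was KIF20A (18.5 CPM per kb), KIF2C (16.5), KIF4A (13.7), KIF11 (10.9), KIF23 (10.9), KIF14 (8.29), KIF18B (8.23), KIF20B (7.55), KIF15 (6.97) and KIF18A (4.66). The neighbours KIF11 and KIF23, KIF14 and KIF18B, KIF18B and KIF20B, and KIF20B and KIF15 could not be separated by their counting intervals on this length. In all 3 groups the first 5 genes of this order were the same and KIF18A came last. With BenSer KIF11 (6.97 CPM per kb) and KIF23 (6.21 CPM per kb) no longer overlapped, and KIF14 (5.09 CPM per kb) stood between KIF20B and KIF15, without being separated from either. The place of KIF23 depends on the length used, as its annotated exons span 6576 bases and its longest coding transcript 3723 bases. With the latter KIF23 was in place 3, at 19.2 CPM per kb, and was separated from KIF11 (11.6 CPM per kb). On that length KIF18B (9.21 CPM per kb) also came before KIF14 (8.29 CPM per kb) and KIF20B (8.05 CPM per kb) and was separated from both.

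The genes around the members in the same pathway were described as lists. Of 23 binding partners and mitotic kinases of the members, 22 were lower with BenSer, 12 of them at least 1.5-fold, and all 22 of these had intervals below 0. Among all genes 55.4% were lower with BenSer, 1.58% at least 1.5-fold lower and 25.8% had intervals below 0 (42.3% of those with at least 10 CPM). The exception was NUMA1, which tethers microtubules at the spindle poles (0.13, 0.081 to 0.18). The list median was −0.60 with BenSer and −0.17 with GPNA, where all 23 were lower, 22 with intervals below 0 and none by 1.5-fold, while 56.7% of all genes were lower and 20.1% had intervals below 0 (38.2% of those with at least 10 CPM). HMMR, a spindle pole protein, had the largest difference with BenSer (37.0 CPM, against 70.4 CPM in untreated cells, −0.91) but hardly differed with GPNA (−0.020, −0.088 to 0.048). CIT, the citron kinase that KIF14 binds, was at −0.90 with BenSer and −0.31 with GPNA, and CDCA8, the borealin subunit of the passenger complex carried by KIF20A, at −0.87 and −0.32.

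Other partners were named for their binding to a member and not by size, after their values had been seen. RACGAP1, the centralspindlin partner of KIF23, was at −0.52 with BenSer, a smaller difference than the −0.79 of KIF23. PRC1, the midzone partner of KIF4A, was at −0.67, and AURKB, the kinase of the passenger complex, at −0.77. TPX2, which binds KIF11 and KIF15 to the spindle, was at −0.57 with BenSer and −0.21 with GPNA. MAPRE1, the end-binding protein that carries KIF18B and KIF2C, was at −0.28 with BenSer.

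Of 4 other kinesins with mitotic roles that were analysed, all were lower in both comparisons. Among all genes 55.4% were lower with BenSer and 56.7% with GPNA. The median of these kinesins was −0.48 for BenSer and −0.16 for GPNA. CENPE, the kinetochore motor, was at 88.5 CPM in the control, 86.6 CPM with GPNA and 57.8 CPM with BenSer (−0.61), and KIFC1, a kinesin-14 that focuses spindle poles, at 48.6, 40.9 and 31.7 CPM (−0.60). Both were at least 1.5-fold lower with BenSer, against 1.58% of all genes. KIF22, a chromokinesin, was at −0.37 with BenSer and −0.19 with GPNA. KIF2A differed least of this list with BenSer (−0.11, −0.21 to −0.0092) and was at −0.13 with GPNA. By contrast, of 28 transport and ciliary kinesins 15 were lower and 13 higher with BenSer, close to the 55.4% lower of all genes. None differed by 1.5-fold with BenSer, and the median was −0.0053. With GPNA 56.7% of all genes were lower and 43.3% higher, against 14 and 14 of these kinesins. Their median was −0.0054. The largest differences among them with BenSer were KIF5C, a neuronal transport motor (0.34), KIF24, a centriolar kinesin (−0.34), and KIF27, a kinesin linked to motile cilia (0.31).

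Of 15 transcriptional regulators of G2/M genes, 14 were lower with BenSer, 13 with intervals below 0 and none by 1.5-fold, with a median of −0.22, where 55.4% of all genes were lower and 42.3% of genes with at least 10 CPM had intervals below 0. With GPNA 13 were lower, 8 with intervals below 0 and 1 above, with a median of −0.12. The 13 of 15 stand against 56.7% of all genes lower. The 8 of 15 stand against 38.2% of genes with at least 10 CPM and 20.1% of all genes. The share of genes with an interval above 0 is not given here. FOXM1, the forkhead factor active at G2/M promoters, was at 77.0 CPM in the control, 59.9 CPM with GPNA (−0.36) and 52.3 CPM with BenSer (−0.55). FOXM1 with GPNA was thus further from the control than any of the 10 kinesins. RBL1 (p107) was at −0.54 and LIN9, a MuvB subunit, at −0.47 with BenSer. Of 12 tubulins, the subunits of the microtubules on which kinesins act, 10 were lower in each comparison (55.4% of all genes with BenSer and 56.7% with GPNA), with medians of −0.26 for BenSer and −0.25 for GPNA. TUBB6 and TUBA1B were both at −0.64 with BenSer, while TUBA1A was at 0.34.

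**Figure D4:**
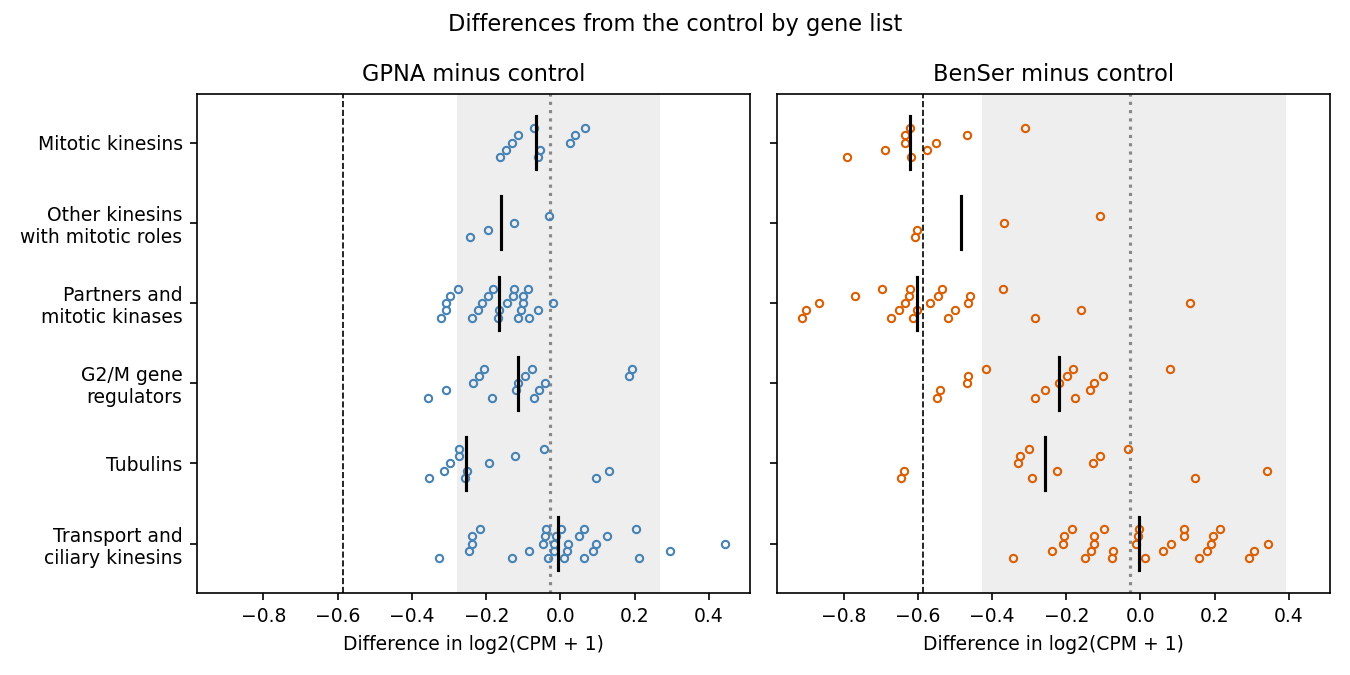
Differences from the control in log2(CPM + 1) for the genes of each list, with GPNA and BenSer in separate panels, a circle per gene, a black bar at the list median, a grey band from the 5th to the 95th percentile of all genes and a dashed line at 1.5-fold lower. With BenSer the mitotic kinesins (median −0.62) and their partners (−0.60) lie lowest, and the transport and ciliary kinesins (−0.0053) lie around 0.

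The genes most like the members were those whose pair of log2 differences lay nearest to the members' median pair (−0.065 with GPNA and −0.62 with BenSer), among 7936 genes with at least 10 CPM in the control and over only 3 samples. They were EEF1B2 (distance 0.0161), OXCT1 (0.0183), HIST1H2BG (0.0228), LIG1 (0.0230) and CKAP2L (0.0232). EEF1B2 encodes a translation elongation factor subunit, OXCT1 an enzyme of ketone body use, HIST1H2BG a histone, LIG1 the replicative DNA ligase and CKAP2L a spindle protein. EEF1B2 was at 153.5 CPM in the control, 145.4 CPM with GPNA and 98.9 CPM with BenSer.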

How the data were processed

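Per the labels and the study's methods, total RNA of PC-3 cells was sequenced from stranded libraries (paired ends) and mapped to hg19/GRCh37.p13. The submitters' processing notes list TopHat2, Bowtie2, HTSeq (0.6.2p2) and DESeq. The doses come from the study's text and the time of 48 h from the labels. The authors deposited 2 tables of 19491 genes, whose value columns are named as counts but hold CPM. All values (100%) correspond to whole reads of the library total, within 0.0001 reads, and the reads were recovered from them. Each table has 4 value columns per group, against 2 labelled samples, and the study's methods speak of 4 replicates. Columns 1 and 2 match the labels by name and were used, and 8 column entries (6 distinct) were not. All columns had been seen when the tables were opened. The tables also hold the authors' own fold changes, p-values and false discovery rates, which were not used.

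Mean CPM of both columns was compared as log2(CPM + 1) where at least 1 of the groups had a mean of 5 or more reads, with exact Clopper-Pearson 95% intervals on merged reads. On simulated data with 200 genes changed 2-fold, the 1.5-fold threshold recovered 199 in each comparison with the control (18452 genes for GPNA and 18736 for BenSer). The simulated reads varied by read sampling only, and the changed genes had many reads. The recovery of 2-fold changes therefore does not show how differences near 1.5-fold, or variation between cultures, are handled. As both columns were counted as 1 sample per group, the treatments were not tested. limma (3.58.1), edgeR (4.0.16) and DESeq2 (1.42.0) in R 4.3.3 were run only as alternatives, with columns as samples, and compare libraries, not treatments. Adjusted p-values were taken at 0.05.

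The members and the gene lists (other mitotic kinesins, partners and kinases, transport and ciliary kinesins, G2/M regulators, tubulins and markers) were chosen with earlier results of these data known. Named were all members, the markers (1 marker list is not reported here), of every other list the 3 genes with the largest difference with BenSer at 50 or more control reads, and the 5 genes most like the members. NUMA1, RACGAP1, PRC1, AURKB, TPX2, MAPRE1 and KIF2A were named outside this rule, after their values had been seen. Gene positions are from GENCODE v44 lifted to GRCh37, matched by Ensembl ID. Promoters of all 10 members are from RefSeq (GRCh38.p14) and were placed on GRCh37 by their single exact match on the chromosome. Alternatives were pseudocount, filter, fold, scaling, length and leaving out columns.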

Additional observations from a re-analysis of the deposited data

How the results depend on the processing

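With each group counted as 1 sample, intervals cover counting error and no treatment effect was tested. In all alternatives run, the summed level and the median of the mitotic kinesins with BenSer stayed below the control, and all 10 members had intervals below 0. Of the 271 values of single members under an alternative, 270 moved by less than their counting error. This count includes the changed filters on low reads, which leave the value of a member as it is and so test nothing here. A move within the counting error can also change the sign. KIF20B with GPNA was at 0.027 with all columns and at −0.023 without GPNA replicate 1. The remaining value is a place in the order per kb and not a level, and there KIF23 moved to place 3. The summed difference with BenSer was −0.58 with both TMM and DESeq2 scaling, and −0.64 to −0.62 without single columns. With GPNA it was −0.035 with TMM factors, −0.037 with DESeq2 size factors and −0.10 to −0.047 without single columns, and between BenSer and GPNA it was −0.58 to −0.53 without single columns. The number of members with an interval below 0 with GPNA ran from 3 to 6. At a 2-fold threshold 0 members were lower in any comparison, and between BenSer and GPNA 10 were lower at a ratio of 5 to 4, 4 with a pseudocount of 0.1 and 2 to 4 without single columns (4 without GPNA replicate 2). Among all genes, a pseudocount of 0.1 gave 879 higher and 652 lower with GPNA, 1205 and 1397 with BenSer, and 930 and 1243 between them. A ratio of 5 to 4 gave 539 and 515, 1396 and 1961, and 1308 and 1349, and a 2-fold threshold 8 and 1, 83 and 9, and 20 and 10. Without single columns 23 to 27 genes were lower with GPNA, against 12 with all columns. Tests between libraries, with columns as samples and an adjusted p under 0.05, gave more genes than the fold threshold. In limma 986 were higher and 2377 lower with GPNA, 2855 and 3971 with BenSer, and 3305 and 3124 between them. In edgeR the numbers were 1300 and 1553, 3472 and 3331, and 3399 and 3037, and in DESeq2 445 and 534, 2016 and 1939, and 1941 and 1567. With the replicate number as a block, limma gave 925 and 2251, 2962 and 4137, and 3267 and 3083. Deviations of same-numbered columns correlated at 0.0425 to 0.0662 over 7924 genes. These correlations are small but all positive, and whether same-numbered columns share more than a number was not tested.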
